A study of Canis lupus familiaris with 6 samples.

Results

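The DNA replication genes described here are 51 genes that license, fire, copy and finish replication origins or supply what the copying needs. They were chosen by name, with earlier results of these data known. A row with the symbol was found for 49 of them among the 29822 genes of each library, and none was found for PRIM1 and POLD2, which were not analysed here. All 49 passed the filter on low counts. The libraries came from CMM10, a malignant melanoma cell line of the dog. In 3 libraries the cells had been incubated under hypoxia and in 3 under normoxia. The labels name no oxygen level, no duration, no other treatment and no separate cultures, so the spread between replicates may be technical. All the values are from 1 cell line.

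A cell prepares to copy its genome in steps. The origin recognition complex binds origins in G1, and CDC6 and CDT1 load the ring-shaped MCM helicase onto them, a step called licensing that geminin (GMNN) blocks by binding CDT1. In S phase, kinases together with CDC45, the GINS complex and MCM10 turn the loaded ring into an active helicase, and polymerases, the clamp PCNA and its loader RFC follow it. Many of these genes are transcribed under E2F factors around the start of S phase, so their transcripts are widely used as a measure of proliferation.

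Gene reads numbered 23196647 to 28804337 per library, and the hypoxia libraries were deeper. The label of the hypoxia libraries was matched by the known hypoxia targets CA9 (409 ± 4.84 against 29.9 ± 1.00 CPM, mean ± SD, n = 3 per group), SLC2A1 (log2 fold change 2.49) and VEGFA (1.80). Of 8 melanocyte markers, SOX10, DCT and MITF had mean TPM of 63.3, 48.8 and 24.0, whereas PMEL (1.75), MLANA (1.06), S100B (0.876) and TYRP1 (0.0205) were low and TYR had a mean TPM of 0. Summed TPM was 0.583 to 1.31 per library for 5 leukocyte markers and 4.37 to 4.63 under hypoxia against 3.04 to 3.53 under normoxia for 4 endothelial markers. For 6 fibroblast markers it was 2838 to 2933 under hypoxia and 2176 to 2307 under normoxia, nearly all from the collagen gene COL1A2, with DCN (2.60), LUM (0.180) and PDGFRB (0.579) low. Whether the endothelial or fibroblast difference has a part in the results below was not tested.

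Most DNA replication genes were modestly lower under hypoxia. Of the 49, 39 were called lower, 3 higher and 7 were not called, by edgeR's quasi-likelihood test at a Benjamini-Hochberg adjusted p below 0.05 over all 15397 genes tested. Among all genes tested, 24.4% (3761) were called lower and 24.5% (3778) higher, a split that became 4862 lower and 3076 higher when libraries were scaled by their size alone, with 40 of the 49 lower and 3 higher. The median log2 fold change of hypoxia over normoxia was -0.24, a fall of the median gene by 15.1%, beside a median of 0.00096 over all genes tested. Against a null of a 1.2-fold change, 11 of the 49 were lower and 0 higher, beside 7.11% lower and 12.2% higher of all genes tested. The hypoxia values all lay below the normoxia values in 38 of the 49 and all above them in 3, where 27.5% and 27.8% of all genes tested did so. Counts of called genes by role below are read beside the 24.4% lower and 24.5% higher of all genes tested. In these bulk samples, fewer cells in S phase and less RNA per cell cannot be told apart.

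The summed TPM of the 49 genes, a level scaled for exon length and library, was 4272, 4196 and 4215 in the hypoxia libraries and 5038, 5033 and 5035 in the normoxia libraries (4228 ± 39.6 against 5035 ± 2.18, mean ± SD, n = 3 per group). The groups did not overlap, and the two-sided exact permutation p was 0.1, the smallest that 3 against 3 libraries can give. Falls were small for single genes: from gene reads, ORC1 alone changed by over 1.5-fold, 8 genes fell by over 25% and 13 by over 20%. ORC1 lay close to that bound, at 0.659 of its normoxia level from gene reads, 0.677 from exon reads and 0.659 from exon-exon reads.

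**Figure D1:**
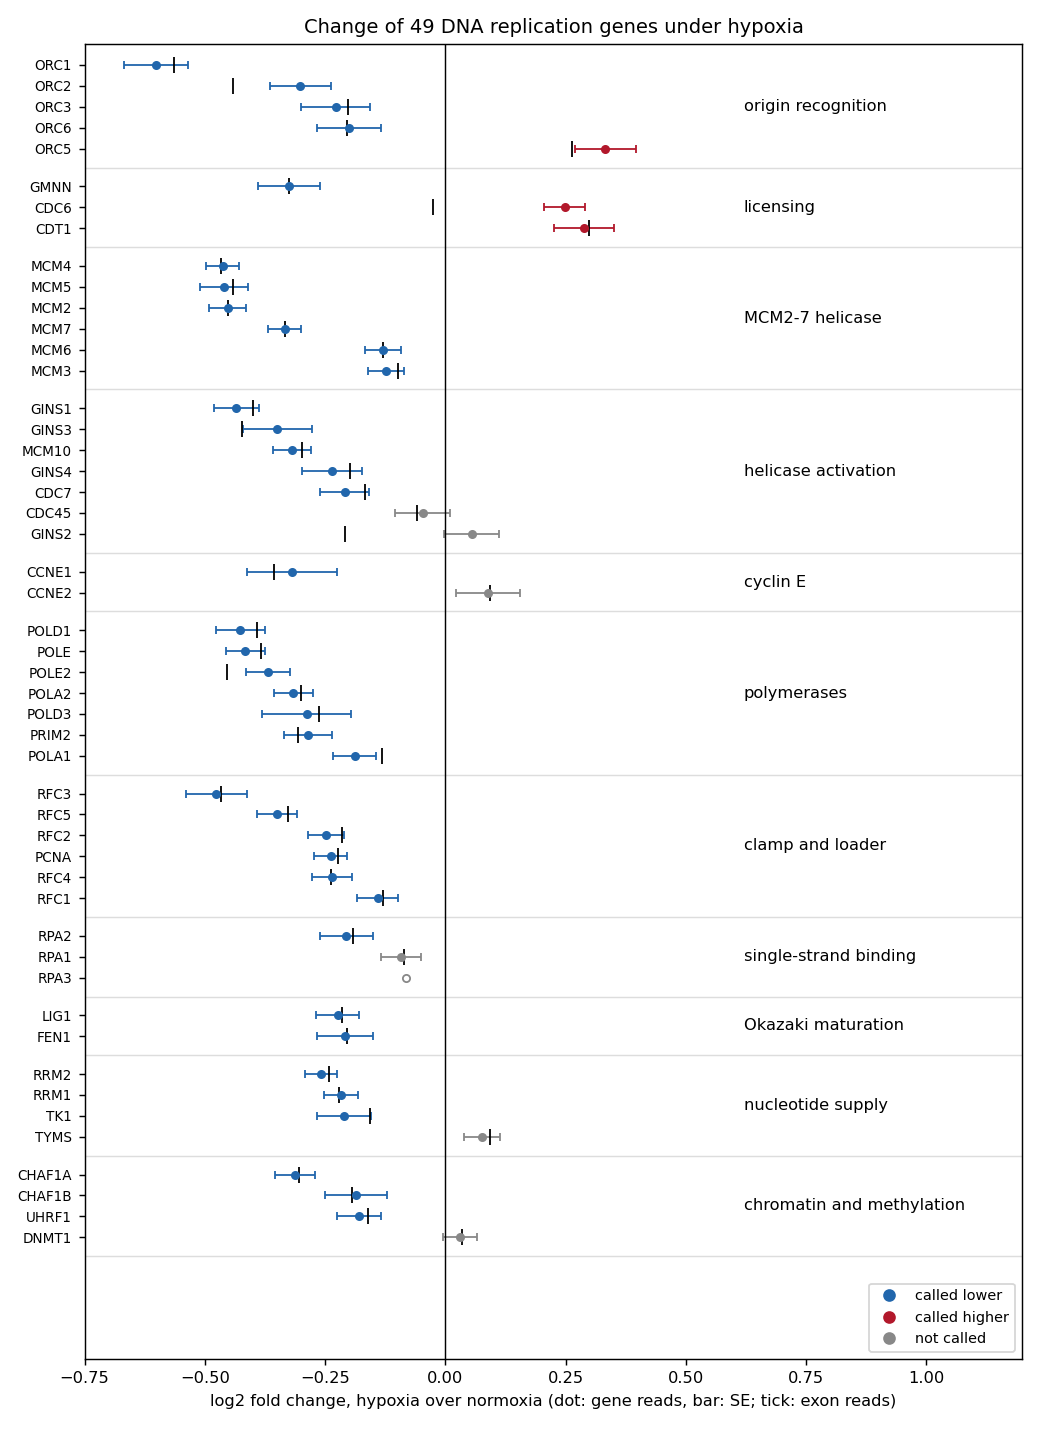
Log2 fold change of hypoxia over normoxia (x axis) for the 49 measured DNA replication genes, grouped by role. Dots are changes of total gene reads with their SE, coloured by call, black ticks are changes of exon reads only, and RPA3 (open circle, 64 reads in all) is drawn without its SE. Of the dots, 39 are called lower and 3 (ORC5, CDC6 and CDT1) higher, and the exon ticks of CDC6 and GINS2 lie on the other side of 0 from their dots.

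The origin recognition complex, which marks the sites where replication can start, held both the largest fall and the largest rise in gene reads. ORC1, the subunit whose protein is made and destroyed with the cell cycle, lies on chromosome 15 (8971732 to 8995481, plus strand) of the CanFam3.1 build. Its level was 23.7, 22.1 and 23.5 CPM in the hypoxia libraries and 33.8, 36.6 and 34.7 CPM in the normoxia libraries. Each hypoxia library was below each normoxia library, with a log2 fold change of -0.60 ± 0.067 (estimate ± SE, as below; adjusted p = 4.44e-09). ORC5, on chromosome 18 (16088184 to 16166718, plus strand), went the other way, at 39.5, 40.3 and 45.2 CPM in the hypoxia libraries and 31.8, 34.0 and 33.4 CPM in the normoxia libraries. It was higher in each hypoxia library (0.33 ± 0.064, adjusted p = 5.12e-05), and it was also called higher from exon reads (0.26), exon-exon reads (0.29) and intron reads (0.48). From exon and exon-exon reads the estimated rise of CDT1 was larger (0.30 and 0.37). The TPM ratio of ORC5 to ORC1 was 2.08, 2.23 and 2.32 under hypoxia and 1.29, 1.32 and 1.13 under normoxia. ORC2 (-0.30), ORC3 (-0.23) and ORC6 (-0.20) fell. The call of ORC3 was lost without hypoxia replicate 1 or 2 or normoxia replicate 2 (adjusted p = 0.0616, 0.0551 and 0.0776), and that of ORC6 without hypoxia replicate 2 or normoxia replicate 2 (0.0664 and 0.0522), all by edgeR. The ORC1 model lies wholly within that of TUT4 on the same strand, and the file assigned none of the ORC1 intron reads to ORC1 uniquely. From exon reads ORC1 fell by 0.56 on the log2 scale and TUT4 was not called from gene reads (-0.035, adjusted p = 0.554 by edgeR).

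The licensing factor CDT1 and its inhibitor GMNN moved in opposite directions. CDT1, which brings the MCM ring to the origin, had 41.7, 44.0 and 42.6 CPM in the hypoxia libraries and 35.1, 37.4 and 32.4 CPM in the normoxia libraries, all hypoxia values being above all normoxia values (0.29 ± 0.062, adjusted p = 2.31e-04). Its rise was also found in exon reads (0.30 ± 0.063) and in exon-exon reads, which span a splice junction (0.37 ± 0.080). The 5′ end of the CDT1 model shares 714 bases with PIEZO1 on the opposite strand, which was not called (0.031). GMNN, which encodes geminin, had 41.7, 33.9 and 37.8 CPM in the hypoxia libraries and 46.0, 48.5 and 47.6 CPM in the normoxia libraries, a fall of 0.32 ± 0.064 (adjusted p = 8.12e-05). The TPM ratio of CDT1 to GMNN was 0.355, 0.449 and 0.391 under hypoxia and 0.266, 0.269 and 0.234 under normoxia. The ratio was higher in each hypoxia library.

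CDC6, the partner of CDT1 in loading the helicase, was called higher from gene reads, but not from exon or exon-exon reads. Gene reads gave 112, 107 and 105 CPM in the hypoxia libraries and 91.7, 88.7 and 92.5 CPM in the normoxia libraries (0.25 ± 0.043, adjusted p = 1.21e-05). Reads in exons, scaled to exon reads, were 80.9, 77.3 and 75.9 CPM under hypoxia and 79.5, 75.8 and 83.3 CPM under normoxia. These values overlapped, and the change was -0.026 ± 0.051 (adjusted p = 0.714, edgeR). Exon-exon reads were 92.7, 88.9 and 86.0 CPM against 95.9, 90.1 and 96.0 CPM, also overlapping (-0.074 ± 0.059, adjusted p = 0.326). Intron reads were 213, 201 and 195 CPM against 129, 128 and 119.6 CPM, with no overlap (0.69 ± 0.065, adjusted p = 1.89e-14). The rise counted for CDC6 thus lay in reads assigned to its introns, which were 40.3% of its gene reads over the 6 libraries.

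The CDC6 model spans 90245 bases on chromosome 9 (22226719 to 22316963, minus strand), although its exons cover only 2140 bases. It holds the whole model of RARA, the retinoic acid receptor alpha gene, on the same strand (22254806 to 22289459), and overlaps 10778 bases of TOP2A on the opposite strand (22207638 to 22237496). It also holds ENSCAFG00000016099, an unnamed gene with 226 reads in all that was not called, and the snRNA gene U6_366 with 0 reads. RARA rose by 0.93 from gene reads (adjusted p = 1.46e-17), and its exon reads were 116, 121 and 119 CPM under hypoxia and 67.0, 66.2 and 67.7 CPM under normoxia. TOP2A, the topoisomerase that untangles sister chromatids, was slightly lower, at 666, 629 and 653 CPM in the hypoxia libraries and 686, 679 and 694 CPM in the normoxia libraries (-0.080 ± 0.033, adjusted p = 0.0425). From exon-exon reads TOP2A changed by -0.036 ± 0.032 and was not called. TOP2A intron reads fell (-0.36 ± 0.077) and RARA intron reads rose (1.74 ± 0.13). None of the RARA intron reads was assigned to RARA uniquely, so their rise is not a measure of RARA apart from CDC6. Intron reads assigned uniquely to CDC6 also rose, from 115, 113 and 101 to 182, 176 and 166 CPM (0.67 ± 0.071). The library kit marks no strand and the files place no read within an intron, so the part of RARA in these reads was not tested.

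**Figure D2:**
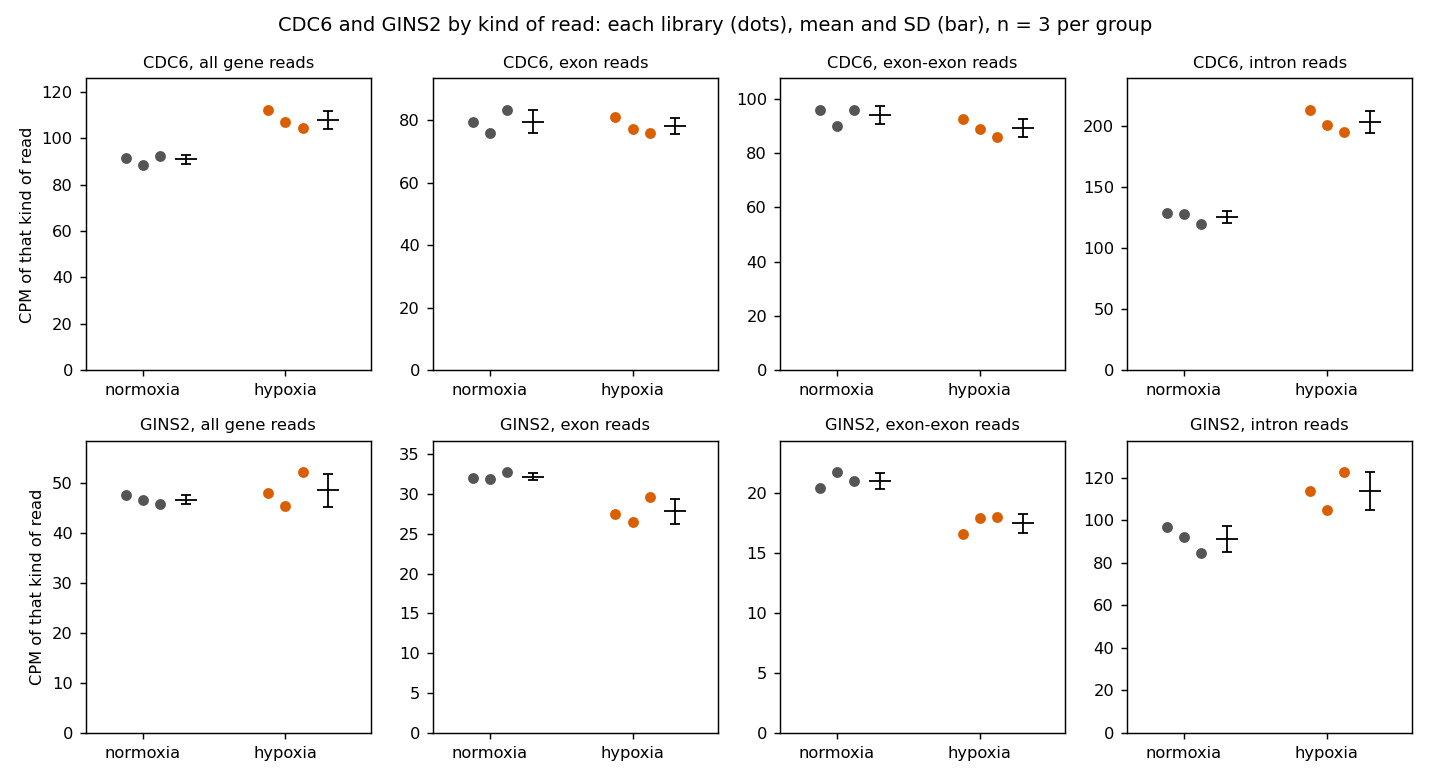
CPM of each kind of read (y axis) for CDC6 and GINS2 in each of the 3 normoxia and 3 hypoxia libraries (dots), with mean and SD (bars). For CDC6 the exon and exon-exon values of the conditions overlap while intron values do not, and for GINS2 exon reads are lower and intron reads higher under hypoxia.

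In gene reads, all 6 genes of the MCM helicase, the ring that unwinds DNA at the fork, fell, but not by the same amount. MCM4 had 229.5, 223 and 231 CPM in the hypoxia libraries and 319, 306 and 317 CPM in the normoxia libraries (-0.46 ± 0.034, adjusted p = 5.78e-13). MCM5 had 91.9, 92.9 and 82.4 CPM in the hypoxia libraries and 124, 129 and 115 CPM in the normoxia libraries (-0.46 ± 0.049), and MCM2 fell by a like amount (-0.45 ± 0.039). MCM7, the member of highest TPM in the ring (mean 234), had 257, 253 and 254 CPM in the hypoxia libraries and 328, 326 and 309 CPM in the normoxia libraries (-0.33 ± 0.035). The MCM5 model overlaps an unnamed gene, ENSCAFG00000049024, with 67 reads in all and no call. In the 4 genes MCM2, MCM4, MCM5 and MCM7 every hypoxia value lay below every normoxia value. The falls of MCM3 (-0.12 ± 0.037) and MCM6 (-0.13 ± 0.037) were smaller, though again no hypoxia value reached a normoxia value. MCM6 had 161, 154 and 156 CPM in the hypoxia libraries and 172, 170.2 and 173 CPM in the normoxia libraries. The TPM ratio of MCM6 to MCM4 was 0.768, 0.752 and 0.736 under hypoxia and 0.588, 0.605 and 0.592 under normoxia; it was higher in each hypoxia library. The MCM7 model hosts the microRNA genes cfa-mir-106b, cfa-mir-25 and ENSCAFG00000025680, each with 0 reads in these polyadenylated libraries.

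Each of the ratios in this account was chosen after its values were seen. Of 5 such ratios, each gave a two-sided exact permutation p of 0.1, the smallest possible with 3 against 3 libraries, and 0.1 after Benjamini-Hochberg adjustment.

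**Figure D3:**
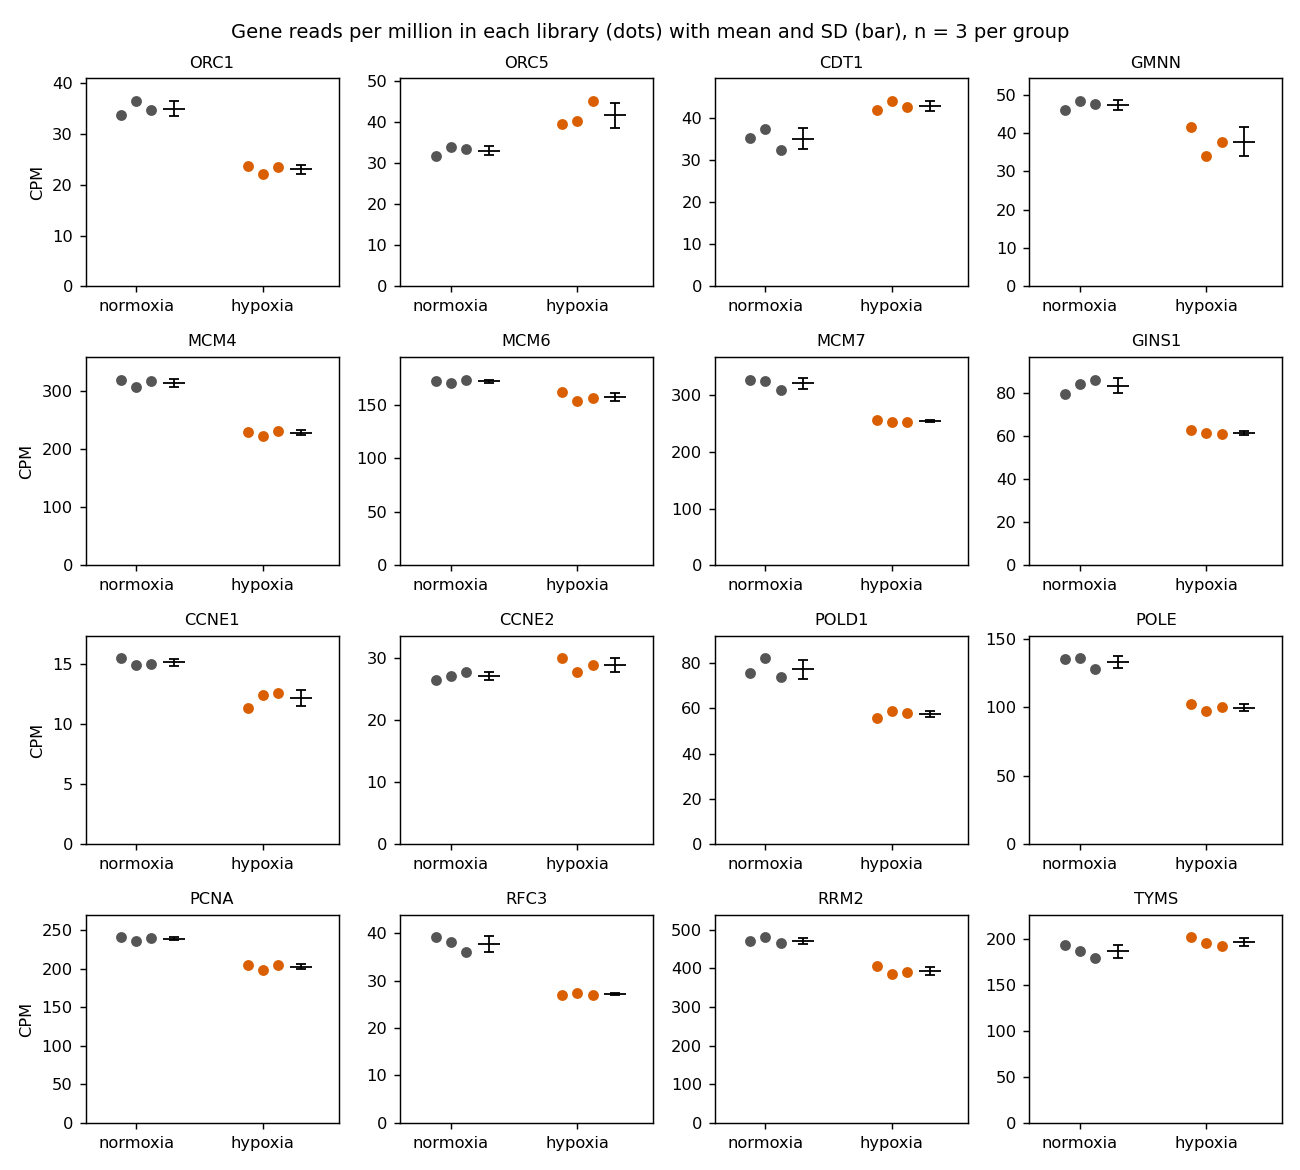
CPM of total gene reads (y axis) for 16 DNA replication genes in each normoxia and hypoxia library (dots), with mean and SD of 3 libraries (bars). ORC5 and CDT1 are higher in every hypoxia library, CCNE2 and TYMS are not separated by the test of gene reads, and the other 12 are lower in every hypoxia library.

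Of 7 genes that activate the loaded helicase, 5 fell in gene reads. GINS1, a subunit of the GINS complex, had 62.7, 61.2 and 60.9 CPM in the hypoxia libraries and 79.4, 84.2 and 86.2 CPM in the normoxia libraries (-0.43 ± 0.048, adjusted p = 3.68e-09). GINS3 had 23.7, 22.4 and 20.5 CPM in the hypoxia libraries and 28.9, 28.7 and 27.1 CPM in the normoxia libraries (-0.35 ± 0.072). GINS4 (-0.24), MCM10 (-0.32) and the kinase CDC7 (-0.21), which phosphorylates the MCM ring, fell by less than GINS1. CDC45, the helicase cofactor that binds together with GINS, was at 44.5, 43.6 and 43.4 CPM in the hypoxia libraries and 45.9, 47.7 and 42.2 CPM in the normoxia libraries. Its groups overlapped and it was not called (-0.047 ± 0.058, adjusted p = 0.535 by edgeR). Its model shares 100 bases with UFD1, which was not called (-0.032).

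GINS2 was not called from gene reads (0.055 ± 0.058, adjusted p = 0.466 by edgeR), but its exon and intron reads moved in opposite directions. Exon reads were 27.5, 26.5 and 29.6 CPM under hypoxia and 31.9, 31.9 and 32.7 CPM under normoxia (-0.21 ± 0.074, adjusted p = 0.0181). Intron reads were 114, 105 and 123 CPM against 96.7, 92.4 and 84.9 CPM (0.32 ± 0.078, adjusted p = 8.08e-04). In both kinds of read the conditions did not overlap. Exon-exon reads did not overlap either, but their fall was not called (-0.27 ± 0.12, adjusted p = 0.0562 by edgeR). Intron reads were 52.5% of GINS2 gene reads, and no other annotated gene overlaps its model.

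The E-type cyclins, which activate CDK2 at the start of S phase, differed. CCNE1 had 11.3, 12.4 and 12.6 CPM in the hypoxia libraries and 15.4, 14.9 and 15.0 CPM in the normoxia libraries (-0.32 ± 0.094, adjusted p = 0.00521). CCNE2 had 30.0, 27.7 and 28.9 CPM in the hypoxia libraries and 26.6, 27.1 and 27.8 CPM in the normoxia libraries; its values overlapped and it was not called (0.089 ± 0.067, adjusted p = 0.285 by edgeR). The TPM ratio of CCNE2 to CCNE1 was 3.47, 2.51 and 3.01 under hypoxia and 2.04, 2.26 and 2.23 under normoxia, higher in each hypoxia library.

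All 7 measured polymerase genes fell in gene reads. POLD1, the catalytic subunit of the lagging-strand polymerase delta, had 55.8, 58.8 and 57.8 CPM in the hypoxia libraries and 75.7, 82.1 and 73.8 CPM in the normoxia libraries (-0.43 ± 0.051, adjusted p = 1.71e-08). POLE, the catalytic subunit of the leading-strand polymerase epsilon, had 102, 97.3 and 100.01 CPM in the hypoxia libraries and 136, 136 and 128 CPM in the normoxia libraries (-0.42 ± 0.041, adjusted p = 3.71e-10). Its partner POLE2 changed by -0.37 from gene reads, 55.5% of which were in introns. From exon and exon-exon reads POLE2 changed by -0.45 and -0.46. The polymerase alpha-primase genes, which lay down the starting primers, had smaller estimated falls than POLD1, POLE and POLE2. Whether the falls differ between these genes was not tested. POLA2, the member of highest TPM among the polymerases (mean 84.3), had 109, 108 and 108 CPM in the hypoxia libraries and 136, 139 and 129 CPM in the normoxia libraries (-0.32 ± 0.040). PRIM2 changed by -0.29 and POLA1 by -0.19. POLD3 (-0.29 ± 0.092) was called although its conditions overlapped, and without hypoxia replicate 2 it was not called (adjusted p = 0.0821 by edgeR). The POLD1 model overlaps NAPSA on the opposite strand, whose gene reads were higher under hypoxia (1.45, adjusted p = 1.99e-12), with 1725 against 10770 of POLD1. Only 32 of these 1725 NAPSA reads were in exons, so its call rests nearly all on intron reads.

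The clamp PCNA, which holds the polymerases on DNA, had the highest TPM of the 49 genes (mean 377). Its level was 204, 198 and 205 CPM in the hypoxia libraries and 240.5, 236 and 239.8 CPM in the normoxia libraries (-0.24 ± 0.035, adjusted p = 7.49e-07). All 5 genes of the clamp loader fell in gene reads too. RFC3 had 27.1, 27.3 and 27.0 CPM in the hypoxia libraries and 39.1, 38.0 and 35.9 CPM in the normoxia libraries (-0.48 ± 0.063, adjusted p = 1.49e-07), the largest estimated fall after ORC1 among the 49 in gene reads. MCM4 and MCM5 (each -0.46) lay within its SE, and from exon reads RFC3 and MCM4 each changed by -0.47. RFC5 had 118, 109 and 106 CPM in the hypoxia libraries and 143, 142 and 139 CPM in the normoxia libraries (-0.35 ± 0.042). RFC2 (-0.25) and RFC4 (-0.24) fell by less. RFC1, the large subunit, changed by -0.14 ± 0.042 and was not called without hypoxia replicate 2 (adjusted p = 0.0762 by edgeR). The RFC4 model lies within that of EIF4A2 on the opposite strand, which was higher under hypoxia (0.20).

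Replication protein A coats single-stranded DNA at the fork. RPA2 had 47.3, 43.6 and 46.1 CPM in the hypoxia libraries and 52.5, 52.3 and 53.2 CPM in the normoxia libraries (-0.21 ± 0.054, adjusted p = 0.00207). RPA1 had 113, 112 and 114 CPM in the hypoxia libraries and 117, 128 and 117 CPM in the normoxia libraries; no value overlapped, but it was not called (-0.093 ± 0.042, adjusted p = 0.0671 by edgeR), and it was called lower without normoxia replicate 3 (-0.12, adjusted p = 0.0352). For RPA3 the row holds a single exon of 366 bases with 64 reads in the 6 libraries, too few to detect a change of this size (-0.081 ± 0.53). Whether this row stands for the whole RPA3 gene was not tested, so its low level is not taken as that of RPA3. LIG1, which seals the finished fragments of the lagging strand, had 79.1, 77.9 and 77.8 CPM in the hypoxia libraries and 91.3, 95.9 and 86.9 CPM in the normoxia libraries (-0.22 ± 0.046). FEN1, which trims them, had 40.8, 41.2 and 41.3 CPM in the hypoxia libraries and 47.99, 50.01 and 44.4 CPM in the normoxia libraries (-0.21 ± 0.058). Both were lower in each hypoxia library. The RPA2 model overlaps SMPDL3B (log2 fold change 0.21, not called) and THEMIS2 (-0.37, lower), and the FEN1 model an unnamed gene, ENSCAFG00000044731 (-0.32, lower). These calls are from gene reads, of which few were in exons for THEMIS2 (684 of 5519) and ENSCAFG00000044731 (106 of 1719).

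Of the genes for nucleotide supply, 3 fell and TYMS was not called. RRM2, the cell-cycle-regulated subunit of ribonucleotide reductase, had 406, 386 and 390.1 CPM in the hypoxia libraries and 469, 480.0 and 465 CPM in the normoxia libraries (-0.26 ± 0.033, adjusted p = 8.84e-08). RRM1, the large subunit, had 179, 180.4 and 178 CPM in the hypoxia libraries and 209.5, 208 and 207 CPM in the normoxia libraries (-0.22 ± 0.035). TK1, the salvage kinase of thymidine, had 279, 279.8 and 239 CPM in the hypoxia libraries and 304, 322 and 298 CPM in the normoxia libraries (-0.21 ± 0.056). Hypoxia replicate 3 was the lowest TK1 library and the hypoxia spread was wide. The TK1 model lies within TMC6 (-0.14) and shares 51 bases with an unnamed gene, ENSCAFG00000048539 (-0.27, adjusted p = 1.53e-06), both called lower from gene reads. Only 9774 of the 65361 gene reads of TMC6 were in exons. Its exon reads, not scaled for depth, did not fall: 1818, 1868 and 1636 in the hypoxia libraries and 1500, 1533 and 1419 in the normoxia libraries. Thymidylate synthase, TYMS, had 202, 196 and 193 CPM in the hypoxia libraries and 194, 187 and 179 CPM in the normoxia libraries and was not called from gene reads (0.076 ± 0.038, adjusted p = 0.0938 by edgeR), while exon reads (0.093, adjusted p = 0.0439) and exon-exon reads (0.12, adjusted p = 0.0209) called it higher. The TPM ratio of TYMS to TK1 was 0.819, 0.803 and 0.915 under hypoxia and 0.753, 0.685 and 0.689 under normoxia.

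Of the genes that restore chromatin and DNA methylation behind the fork, CHAF1A, the large subunit of the histone chaperone CAF-1, had 111, 107 and 103 CPM in the hypoxia libraries and 133, 137 and 128 CPM in the normoxia libraries (-0.31 ± 0.042, adjusted p = 1.45e-07). CHAF1B had 36.2, 34.0 and 34.6 CPM in the hypoxia libraries and 41.2, 42.1 and 35.8 CPM in the normoxia libraries (-0.19 ± 0.065, adjusted p = 0.0177); normoxia replicate 3 lay among the hypoxia values. It was not called without hypoxia replicate 2, normoxia replicate 1 or normoxia replicate 2 (adjusted p = 0.0731, 0.0863 and 0.118 by edgeR). UHRF1, which recruits the maintenance methyltransferase, changed by -0.18 ± 0.046. DNMT1, that methyltransferase, had 309, 319 and 319 CPM in the hypoxia libraries and 316, 315 and 296 CPM in the normoxia libraries, and its overlapping values were not called (0.031 ± 0.035, adjusted p = 0.498 by edgeR).

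Levels per exon length spread widely among the 49 genes. Mean TPM was highest for PCNA (377), TK1 (351), TYMS (271), RRM2 (268) and MCM7 (234). Under normoxia, PCNA (411 ± 4.83 TPM, mean ± SD, n = 3) stood above TK1 (374 ± 10.3), TK1 above RRM2 (293 ± 3.02) and RRM2 above TYMS (265 ± 9.76) by more than their spread, and TYMS and MCM7 (263 ± 3.64) did not differ beyond it. Under hypoxia, PCNA (344 ± 8.45) and TK1 (328 ± 26.5) lay within their spread, and TYMS (276 ± 3.88) stood above RRM2 (242 ± 6.10). After the single-exon row of RPA3, the lowest were POLD3 (12.7), CCNE1 (14.2), GINS3 (16.0) and ORC1 (22.1). With RPA3 left out, the genes had 320 to 13207 gene reads in a library and SEs of 0.033 to 0.094.

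Exon reads and intron reads were compared for 48 of the 49 genes. FEN1 is among the 48, although its model is 1 exon of 1143 bases and has no intron. Between 30 and 56 reads per library were still counted as its intron reads, so its intron change is no measure of introns. From exon reads 40 were called lower and 3 higher (ORC5, CDT1 and TYMS), beside 23.8% and 24.4% of all genes in that fit. From intron reads 22 were called lower and 3 higher (ORC5, CDC6 and GINS2), beside 15.7% and 18.7%. From exon-exon reads, measured for 47, 33 were lower and 3 higher, beside 21.8% and 22.6%. MCM3, GINS3, POLA1, POLD3 and RFC1, called lower from gene reads, were not called from exon-exon reads. Their adjusted p there were 0.0584, 0.157, 0.0557, 0.117 and 0.0943 by edgeR. The medians were -0.22, -0.24 and -0.25 for exon, intron and exon-exon reads. A single edgeR fit with library as a block tested whether intron and exon reads of a gene changed by different amounts. It called 4 of the 48 with a higher intron than exon change and 1 with a lower one, beside 2.67% and 2.99% of all genes in the fit.

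The 4 with a higher intron change were CDC6 (0.72 ± 0.082, adjusted p = 2.97e-08), GINS2 (0.53 ± 0.11, adjusted p = 9.53e-04), ORC2 (0.47 ± 0.13, adjusted p = 0.0191) and MCM7 (0.37 ± 0.11, adjusted p = 0.0465), given as the intron change minus the exon change on the log2 scale. For ORC2, exon reads fell by 0.44 and intron reads changed by 0.028 ± 0.11. For MCM7 introns held only 1.73% of the reads. TK1 had the lower intron change (-0.27 ± 0.064, adjusted p = 0.00466). TMC6 lies on the same strand as TK1, whose uniquely assigned reads numbered exactly its exon reads in every library, as they did for ORC1 and RFC4, so none of the intron reads of these 3 genes was assigned to them alone.

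**Figure D4:**
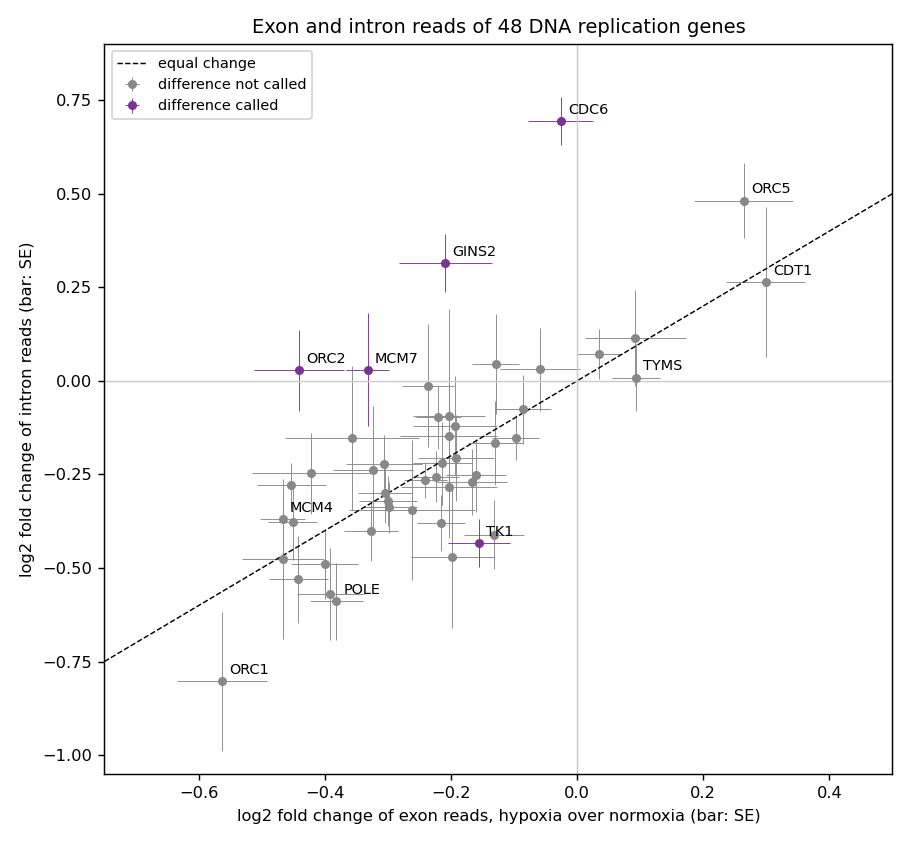
Log2 fold change of intron reads (y axis) against that of exon reads (x axis), hypoxia over normoxia, for 48 DNA replication genes with SE bars. The dashed line marks equal change, most genes lie near it in the lower left, and the 5 coloured genes differ between intron and exon reads by the edgeR test of the difference.

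Gene models of 16 of the 49 genes overlap another annotated gene. Of the 33 that overlap none, 26 were lower and 1, ORC5, was higher, with a median of -0.24, beside 24.4% lower and 24.5% higher of all genes tested. Of the 16 that overlap, 13 were lower and 2, CDC6 and CDT1, were higher, with a median of -0.22.

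The lists that follow are read beside the 24.4% lower and 24.5% higher of all genes tested. Of 24 further replication factors measured, 16 were lower and 1, CHTF8, was higher (median -0.16). The clamp unloader gene ATAD5 had 40.6, 39.9 and 41.3 CPM in the hypoxia libraries and 57.2, 54.5 and 57.0 CPM in the normoxia libraries (-0.47 ± 0.054), and the nuclease-helicase DNA2 changed by -0.44 ± 0.061. Of 8 further genes of nucleotide supply, 6 were lower and 0 higher (median -0.26). CTP synthase CTPS1 changed by -0.45 ± 0.043 and the dNTP hydrolase SAMHD1 by -0.44 ± 0.040. Of 7 genes of histone supply, 5 were lower, with NASP at -0.28, and CASP8AP2 was higher (0.45 ± 0.053).

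Among 17 measured E2F and RB family regulators, 9 were lower and 3 higher (median -0.15), beside 24.4% lower and 24.5% higher of all genes tested. E2F8, a repressor of the E2F family, had 30.5, 29.5 and 30.1 CPM in the hypoxia libraries and 49.6, 49.2 and 49.6 CPM in the normoxia libraries (-0.72 ± 0.058, adjusted p = 3.29e-12). TFDP2, a dimerization partner of E2F factors, had 51.4, 52.5 and 56.8 CPM in the hypoxia libraries and 27.9, 25.2 and 25.3 CPM in the normoxia libraries (1.03 ± 0.063, adjusted p = 3.64e-15), and 67.5% of its reads were in introns. The other two called higher were RB1 (0.48) and RBL2 (0.27), and 3 of 17 is no larger a share than that of all genes called higher. Of 14 kinases and controllers of S phase, 8 were lower and 3 higher (median -0.15), beside the same 24.4% and 24.5%, so the share called higher did not exceed that of all genes. The CDK inhibitor CDKN1A had 100.1, 104 and 103 CPM in the hypoxia libraries and 49.1, 49.8 and 44.5 CPM in the normoxia libraries (1.10 ± 0.050, adjusted p = 1.64e-18), and the other two called higher were CDKN1B (0.32) and WEE1 (0.43). The phosphatase CDC25A, which activates CDK2, had 18.4, 19.4 and 20.3 CPM in the hypoxia libraries and 27.7, 29.4 and 29.0 CPM in the normoxia libraries (-0.57 ± 0.072). All 7 measured genes of a short G2 and mitosis list were lower (median -0.32), among them PLK1 (-0.59 ± 0.042), a kinase of mitotic entry, and CDC20 (-0.57 ± 0.042), which starts anaphase. What these genes have to do with the fall of the replication genes was not tested.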

How the data were processed

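The 6 libraries (3 per condition) measured RNA of CMM10 cells after selection of polyadenylated RNA, with a kit that keeps no strand information, per the labels. The deposited tables give, per the file headers, read counts for each gene: total gene reads and, as parts of them, those in exons, across splice junctions and in introns. Coordinates are those of CanFam 3.1, the build in the submitters' processing notes. The aligner is not given in the sources used here. The deposited TPM values sum to the same total in every library. RPKM was also deposited and was left unused.

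Total gene reads were filtered (filterByExpr), scaled by TMM and tested with edgeR 4.0.16 (glmQLFit, glmQLFTest, robust) in R 4.3.3, with Benjamini-Hochberg adjustment over 15397 genes at 0.05. CPM use TMM-scaled library sizes. Exon, exon-exon and intron reads were fitted likewise, each over its whole table (13458, 11288 and 13858 genes). Alternatives used DESeq2 1.42.0, limma 3.58.1 on log2(TPM + 1), other filters, scalings and reads, each library left out, and a replicate block. The intron against exon test, the ratios and the split by overlapping models were chosen after seeing the data. Scripts were tested on simulated data.

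The members and lists were chosen with earlier results of these data known. Values by library are given, in each role, for the gene of largest change, the gene of highest mean TPM and, in roles of 4 or more, the gene of second largest change. They are also given for CDC6, CDT1, GMNN, ORC1, PCNA, CCNE1, CCNE2, and every member called higher. Genes whose models overlap a member with values by library are named. From each other list the 2 called genes of largest change are named. MCM6, CDC45, GINS2, TYMS and the remaining genes given by name were chosen after their values were seen. No sequence was used here.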

Additional observations from a re-analysis of the deposited data

How the results depend on the processing

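With DESeq2, without a filter, from uniquely mapped reads and with the replicate block, 39 genes were lower and 3 higher, as in the main test. From uniquely mapped reads, 3801 of all 15178 genes tested were lower and 3826 higher. Counts over all genes with DESeq2 and without a filter are not given here. Equal replicate numbers did not deviate together (correlations of -0.085, 0.026 and -0.049 across genes; 0 samples correlated best with their own number), and the replicate block gave 3769 higher and 3793 lower of all genes. Leaving out each library in turn gave 34 to 40 lower and 3 to 4 higher genes, a median of -0.26 to -0.22, and 3416 to 3598 higher and 3361 to 3585 lower genes overall. Calls and directions held for 39 of the 49, 34 of them lower, under every alternative other than those on exon, exon-exon or intron reads, on TPM and the 1.2-fold null. The exceptions were ORC3, ORC6, GINS2, POLD3, RFC1, RPA1, RPA3, TYMS, DNMT1 and CHAF1B. Scaling by library size alone moved the median to -0.30, and all genes split into 3076 higher and 4862 lower, against 3778 and 3761. Under the 1.2-fold null, 1880 genes were higher and 1094 lower, and 0 and 11 of the 49. Over all genes, exon-exon reads gave 2459 and intron reads 2173 lower genes, with 22 of the 49 lower from intron reads. Genes that overlap no other model gave 1 higher.

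Directions turned for CDC6 (exon -0.026, exon-exon -0.074, TPM -0.060) and for GINS2 (exon -0.21, exon-exon -0.27, TPM -0.24, library size -0.012, and -0.00068 to 0.10 with each library left out). Intron reads turned ORC2 (0.028), MCM6 (0.045), MCM7 (0.029) and CDC45 (0.031), none of them called. With each library left out, RPA3 ranged over -0.56 to 0.46 and DNMT1 over -0.0017 to 0.047; DNMT1 was -0.035 with library size alone. The cause of these changes was not tested.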
